A study of Mus musculus with 30 samples.

Results

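The receptors for type I interferon and interferon gamma, and the kinases attached to them, were followed in mouse mammary glands through 8 genes: Ifnar1, Ifnar2, Ifngr1, Ifngr2, Il10rb, Jak1, Jak2 and Tyk2. They were taken by name, and all 8 were found among the 12147 genes on the array. Ifnar1 had 2 probes and each other gene had 1, so 9 probes were read, and all 9 had values on enough arrays to be tested. RNA came from inguinal mammary glands of 129sv mice aged 19 weeks, with 1 array per gland. The groups were 7 WT glands, 8 IFNAR1-/- glands, which lack the receptor chain encoded by Ifnar1, 6 Her2/Neu+ glands, which carry the oncogene Her2/Neu, and 9 Her2/Neu+/IFNAR1-/- glands with both changes. The study addressed what type I interferon signalling contributes in glands carrying this oncogene. The labels name neither the promoter of Her2/Neu nor the deleted part of Ifnar1. Values are log2 ratios of gland RNA to Universal Reference mouse RNA from Stratagene, the same comparison sample on all 30 arrays, so 0 means the level of the reference. A probe's ratio can be compared between arrays, but not with the ratio of another probe. Because whole glands were measured, fewer cells of a type and less RNA per cell cannot be told apart.

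Interferons signal through pairs of transmembrane chains. IFNAR1 and IFNAR2 bind type I interferons such as interferon alpha and beta, and IFNGR1 and IFNGR2 bind interferon gamma. IL10RB is the shared chain of the receptors for interleukin 10, interleukin 22 and the lambda interferons. The chains have no enzyme activity of their own and hold Janus kinases: TYK2 on IFNAR1 and IL10RB, JAK1 on IFNAR2 and IFNGR1, and JAK2 on IFNGR2. On ligand binding these kinases phosphorylate STAT proteins, which enter the nucleus and switch on interferon-stimulated genes.

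Of the 8 genes, 4 form a cluster on chromosome 16. In RefSeq's annotation for GRCm38.p6, a mouse assembly, Ifnar2, Il10rb, Ifnar1 and Ifngr2 follow each other in this order with no other protein-coding gene between them. Ifngr1 lies on chromosome 10, Jak1 on chromosome 4, Jak2 on chromosome 19 and Tyk2 on chromosome 9. The promoters of 3 cluster genes are shown because Ifngr2 carried the clearest difference between groups and Ifnar1 and Ifnar2 are the chains of the receptor that the study removes. Each runs over 300 bases of the plus strand, from 250 bases before the start of the gene to 50 bases after it, at chr16:91546809-91547108 for Ifngr2, chr16:91484965-91485264 for Ifnar1 and chr16:91372533-91372832 for Ifnar2. Capitals mark matches to the STAT site known as GAS, searched as TTCNNNGAA, which reads the same on both strands.
Ifngr2: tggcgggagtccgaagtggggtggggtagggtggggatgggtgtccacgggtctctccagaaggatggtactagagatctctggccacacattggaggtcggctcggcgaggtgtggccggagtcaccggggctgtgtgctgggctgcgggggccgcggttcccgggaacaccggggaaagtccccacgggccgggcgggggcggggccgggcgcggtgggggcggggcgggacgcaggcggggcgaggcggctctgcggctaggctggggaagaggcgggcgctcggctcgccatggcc
Ifnar1: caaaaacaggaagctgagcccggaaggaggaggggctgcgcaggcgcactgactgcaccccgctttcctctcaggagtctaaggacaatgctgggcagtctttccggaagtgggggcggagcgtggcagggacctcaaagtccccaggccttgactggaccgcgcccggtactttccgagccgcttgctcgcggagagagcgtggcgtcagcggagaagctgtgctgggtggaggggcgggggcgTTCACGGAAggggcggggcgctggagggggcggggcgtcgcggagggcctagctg
Ifnar2: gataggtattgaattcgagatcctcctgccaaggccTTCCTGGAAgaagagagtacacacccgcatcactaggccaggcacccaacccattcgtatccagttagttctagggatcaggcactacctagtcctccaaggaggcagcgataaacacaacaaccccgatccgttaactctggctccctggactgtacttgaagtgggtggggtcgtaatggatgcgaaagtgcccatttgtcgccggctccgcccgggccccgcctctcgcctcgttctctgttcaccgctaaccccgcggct
Promoters from RefSeq were matched for 7 of the 8 genes. A GAS match was present in Ifnar1, where TTCACGGAA begins at position -5 from the start, and in Ifnar2, where TTCCTGGAA begins at position -214. Among 32851 promoters of the same length, 8.30% held such a match. The core of the interferon-stimulated response element, searched as AAANNGAAA on both strands, occurred in 10.6% of these promoters and in none of the 7. The Ifngr2 promoter had no match to either motif and a G and C content of 74.3%, against a median of 52.7% over all promoters. A match describes letters only and was not tested as a binding site.

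The arrays carried between 17485 and 20801 values each, and precision is limited by the number of arrays, since the table holds no intensities. Many values recurred, to the last digit, in several probes of 1 array, below termed repeated values. Their share of the values was lowest in IFNAR1-/- glands (26.6%), followed by WT (33.2%), Her2/Neu+ (36.9%) and Her2/Neu+/IFNAR1-/- glands (43.6%). How they arose is not given in the sources used here, and their part in a result was tested only by setting them to missing. Adipocyte markers, 6 of 6 measured, averaged between 5.26 and 5.51 in the 4 groups, with Cidec at the table's limit of 6 in all 7 WT glands and in all 9 Her2/Neu+/IFNAR1-/- glands, so that these means are capped, and luminal epithelial markers averaged between 0.90 and 1.56. Skeletal muscle markers, 6 of 8 measured, ran from -0.37 to 5.05 over the IFNAR1-/- glands and were high in samples 41, 42 and 44 of that group. The labels number separate samples and do not say more about their origin, so a p-value here reflects only how far these samples spread, which may be technical.

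None of the 9 probes passed the threshold, an adjusted p under 0.05 over 19525 probes in limma's test, in any comparison. Of all probes, 0.0205% passed for IFNAR1-/- minus WT and 0.113% for Her2/Neu+ minus WT. The share was 0.0973% for Her2/Neu+/IFNAR1-/- minus Her2/Neu+, and 1.09% for the same group minus IFNAR1-/-. The share was 0.0154% for the interaction, the change upon receptor loss in oncogene-bearing glands less that in glands free of it. It was 0.0922% for receptor loss averaged over both oncogene states, 1.56% for the oncogene averaged over both receptor states and 0.149% for Her2/Neu+/IFNAR1-/- minus WT. At an unadjusted p under 0.05, 2 of the 9 probes stood out in IFNAR1-/- minus WT (Ifngr1 and Ifngr2), where 6.51% of all probes did. For Her2/Neu+ minus WT it was 1 of 9 (Ifngr2, against 11.8% of all probes). For Her2/Neu+/IFNAR1-/- glands it was 0 of 9 against Her2/Neu+ (12.1%) and 1 of 9 against IFNAR1-/- glands (Ifnar1, 18.1%). It was 0 of 9 for the interaction (10.4%), 1 of 9 for averaged receptor loss (Ifngr2, 8.87%), 1 of 9 for the averaged oncogene effect (Ifngr2, 18.1%) and 2 of 9 in Her2/Neu+/IFNAR1-/- minus WT (Ifngr2 and Ifnar1, 10.3%). With so few members, these counts are close to the shares over all probes in most comparisons.

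**Figure D1:**
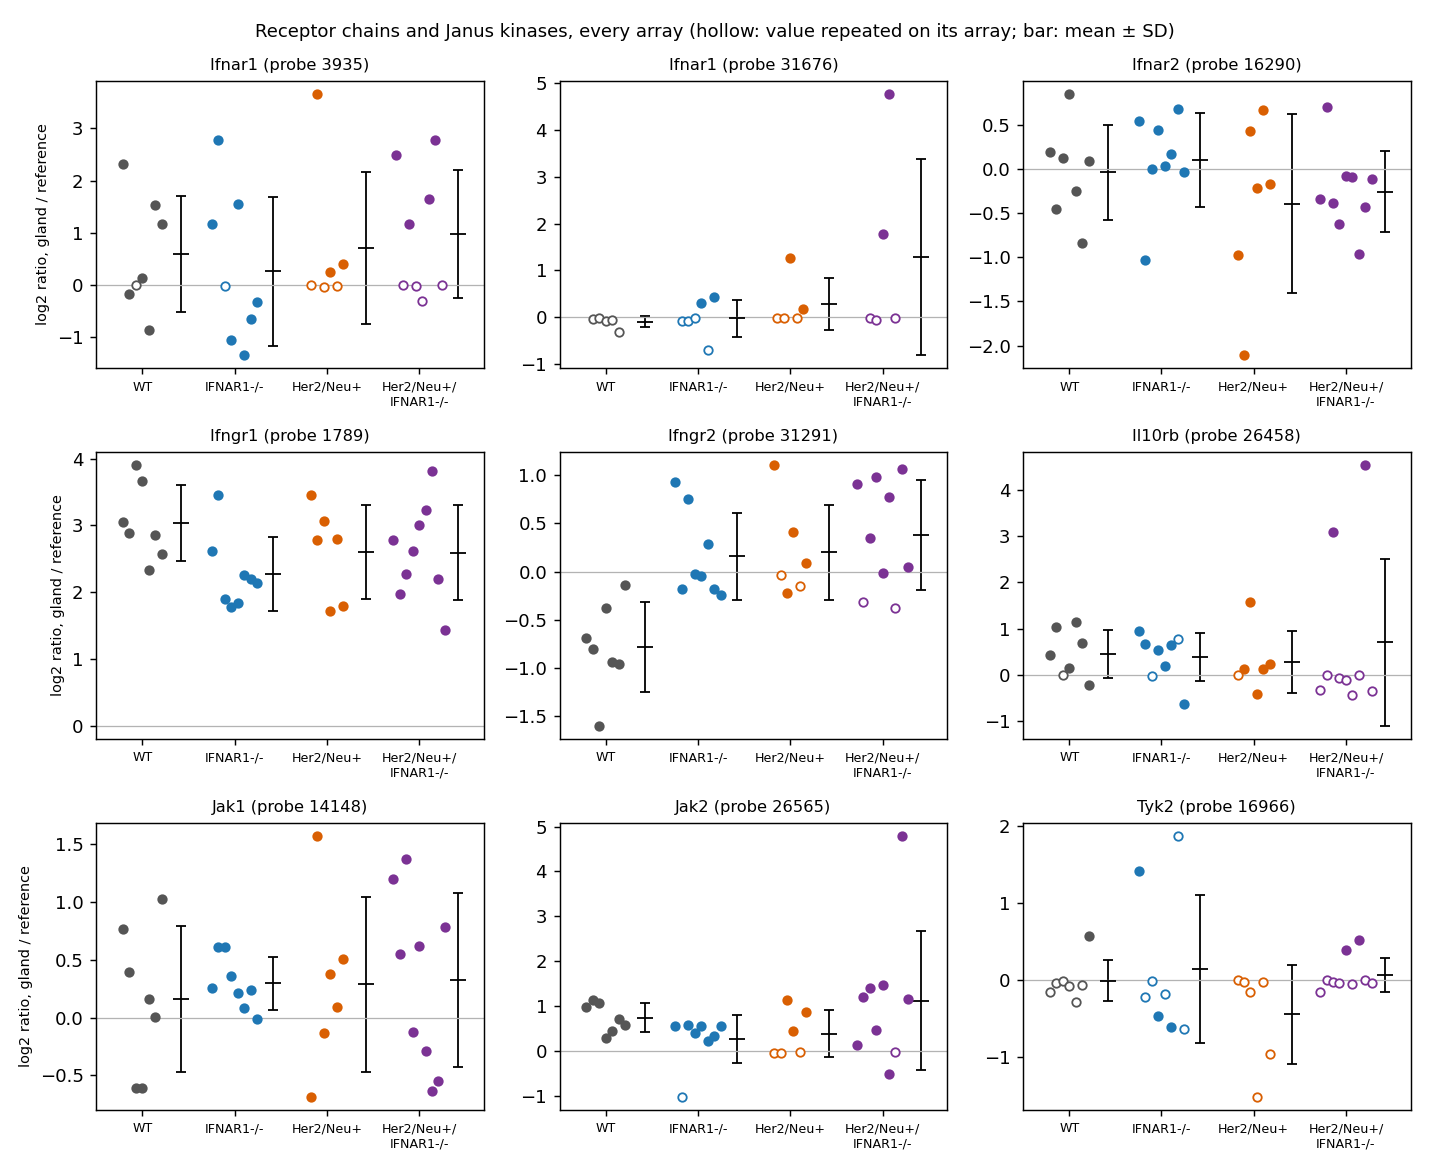
Log2 ratio of gland to reference on every array for the 9 probes, by group. Points are arrays, hollow points are repeated values, and the bar beside each group is the mean with its SD. In the Ifngr2 panel all 7 WT glands lie below 0, and in the Tyk2 panel most points are hollow and close to 0.

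Ifngr2, the interferon gamma receptor chain that holds JAK2, was lowest in WT glands. WT samples 53, 54, 55, 56, 57, 59 and 60 stood at -0.69, -0.80, -1.60, -0.37, -0.94, -0.96 and -0.14. IFNAR1-/- glands ran from -0.24 through a median of -0.04 to 0.93, Her2/Neu+ glands from -0.22 through 0.03 to 1.11 and Her2/Neu+/IFNAR1-/- glands from -0.38 through 0.35 to 1.07. All WT values were below 0, and 6 of the 7 were below every IFNAR1-/- value and below every Her2/Neu+ value, and 5 were below every Her2/Neu+/IFNAR1-/- value. WT sample 60, at -0.14, was the highest of its group and overlapped the others.

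The group means of Ifngr2 were -0.79 ± 0.47 (SD, n = 7) in WT glands, 0.16 ± 0.45 (n = 8) in IFNAR1-/- glands, 0.20 ± 0.50 (n = 6) in Her2/Neu+ glands and 0.38 ± 0.57 (n = 9) in glands of the Her2/Neu+/IFNAR1-/- group. The difference from WT was 0.95 ± 0.27 (SE) in IFNAR1-/- (limma, adjusted p = 0.560) and 0.99 ± 0.29 in Her2/Neu+ glands (adjusted p = 0.168). In Her2/Neu+/IFNAR1-/- glands it was 1.17 ± 0.26 (adjusted p = 0.0610), a comparison added after the Ifngr2 values had been seen. These 3 differences share the WT arrays and are not independent of each other. Among the 3 groups other than WT the means were close: Her2/Neu+/IFNAR1-/- minus Her2/Neu+ was 0.18 with a 95% interval of -0.38 to 0.74, and Her2/Neu+/IFNAR1-/- minus IFNAR1-/- was 0.22 with an interval of -0.30 to 0.74. The interaction was -0.77 ± 0.38 (adjusted p = 0.489).

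The lower WT level of Ifngr2 was present in each of 2 sets of 15 arrays inferred from array positions. However, the WT glands of each set lay on 1 inferred slide, which held no IFNAR1-/- or Her2/Neu+ gland. A difference between these genotypes and WT therefore cannot be told apart from a difference between slides. The WT mean was -0.77 (n = 4) in set 1 and -0.81 (n = 3) in set 2, against 0.15 (n = 3) and 0.16 (n = 5) in IFNAR1-/- glands and 0.29 (n = 4) and 0.45 (n = 5) in Her2/Neu+/IFNAR1-/- glands. Her2/Neu+ glands averaged 0.35 (n = 4) in set 1 and -0.09 (n = 2) in set 2, where both values were repeated. Of the inferred slides, 1 held both WT and Her2/Neu+/IFNAR1-/- glands, and on it WT samples 53, 54 and 57 were at -0.69, -0.80 and -0.94 and Her2/Neu+/IFNAR1-/- sample 102 at 0.91. With slide as a random block, Her2/Neu+/IFNAR1-/- minus WT was 1.21 ± 0.30 (adjusted p = 0.216). Without the 4 repeated values of this probe, which belonged to Her2/Neu+ samples 114 and 119 and Her2/Neu+/IFNAR1-/- samples 103 and 108, the same difference was 1.37 with all repeated values set to missing and passed the threshold (adjusted p = 0.0108). Samples 103 and 108 had the lowest Ifngr2 values of their group, -0.32 and -0.38, so leaving them out widens the difference by itself. The difference also passed with array weights (1.24, adjusted p = 0.00439), where 245 of all probes passed, against 29 without weights. It passed too without WT sample 60, Her2/Neu+ sample 113 or Her2/Neu+/IFNAR1-/- sample 103 or 108, at adjusted p-values of 0.0407, 0.0444, 0.0262 and 0.0414. WT sample 60 was the highest of its group, so leaving it out also widens the difference. The threshold was passed in 7 of 48 alternatives, and adjusted p-values reached 0.524 in the others. Among the 7 was 1 that set values shared by 10 or more probes to missing and left every Ifngr2 value as it was. Without the 3 glands high in muscle markers, IFNAR1-/- minus WT was 0.93 (adjusted p = 0.629).

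**Figure D2:**
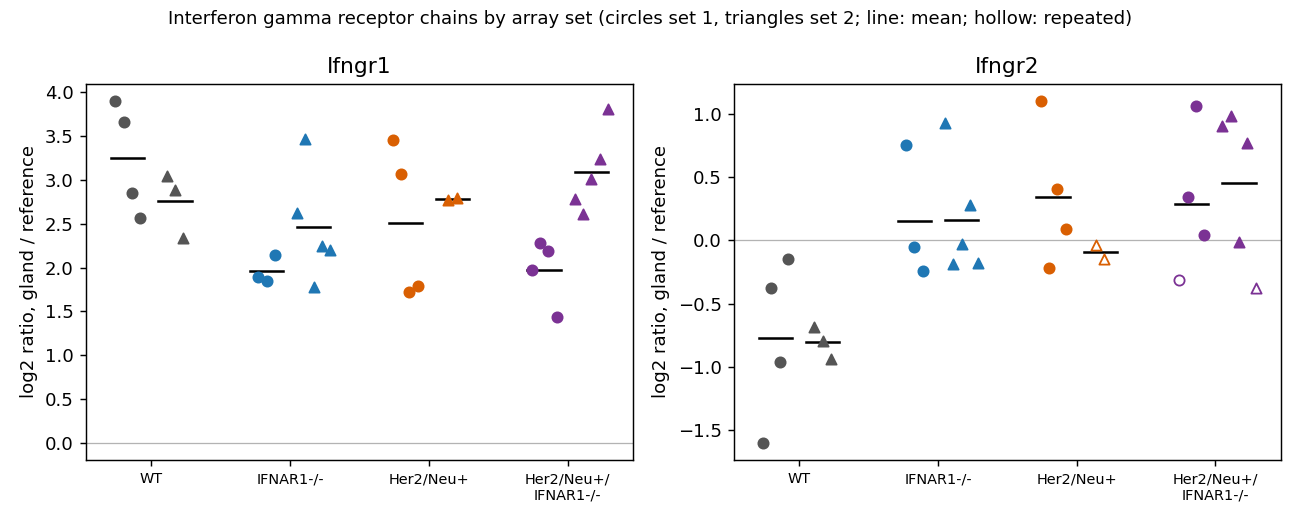
Log2 ratio of Ifngr1 and Ifngr2 on every array, by group and by inferred array set (circles set 1, triangles set 2). Lines are means and hollow points are repeated values. The WT means of Ifngr2 are -0.77 and -0.81 in the 2 sets, below those of the other groups in the same set.

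Ifngr1, the ligand-binding chain of the interferon gamma receptor, was above the reference on all 30 arrays. WT glands ran from 2.34 through a median of 2.88 to 3.90, IFNAR1-/- glands from 1.78 through 2.17 to 3.46, Her2/Neu+ glands from 1.72 through 2.79 to 3.46 and Her2/Neu+/IFNAR1-/- glands from 1.43 through 2.62 to 3.81. The groups overlapped, although 6 of the 8 IFNAR1-/- glands lay below every WT gland. WT glands averaged 3.04 ± 0.56 (SD, n = 7) and IFNAR1-/- glands 2.27 ± 0.55 (n = 8), a difference of -0.76 ± 0.33 (SE, limma, adjusted p = 0.729). Her2/Neu+ glands averaged 2.60 ± 0.70 (n = 6) and Her2/Neu+/IFNAR1-/- glands 2.59 ± 0.71 (n = 9), with a difference of -0.01 and a 95% interval of -0.70 to 0.68. In the Her2/Neu+/IFNAR1-/- group the array sets did not overlap: the mean was 1.97 ± 0.38 (n = 4) in set 1 and 3.09 ± 0.46 (n = 5) in set 2. The sign of Her2/Neu+/IFNAR1-/- minus WT turned with the set, from -1.28 in set 1 alone to 0.34 in set 2 alone.

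Ifnar1, the gene targeted in the knockout, varied widely within every group, and no difference by genotype passed the test. With probe 3935, WT samples 53, 54, 55, 56, 57, 59 and 60 were at 2.32, -0.18, -0.01, 0.14, -0.86, 1.54 and 1.16. IFNAR1-/- samples 39, 41, 42, 44, 45, 46, 47 and 50 were at 1.16, 2.77, -0.01, -1.07, 1.55, -1.35, -0.66 and -0.33. Her2/Neu+ glands ran from -0.04 through a median of 0.12 to 3.66 and Her2/Neu+/IFNAR1-/- glands from -0.31 through 0.58 to 2.77. The ranges overlapped, although 1 of the 8 IFNAR1-/- glands lay above every WT gland and 2 lay below.

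The means of probe 3935 were 0.59 ± 1.12 (SD, n = 7) in WT glands, 0.26 ± 1.43 (n = 8) in IFNAR1-/- glands, 0.70 ± 1.46 (n = 6) in Her2/Neu+ glands and 0.97 ± 1.23 (n = 8) in glands of the Her2/Neu+/IFNAR1-/- group. IFNAR1-/- minus WT was -0.33 with a 95% interval of -1.66 to 1.00, and Her2/Neu+/IFNAR1-/- minus Her2/Neu+ was 0.26 with an interval of -1.12 to 1.65. The sign of the former was kept in 46 of 46 alternatives, which reuse the same arrays and are no separate support. The second Ifnar1 probe had the opposite sign for IFNAR1-/- minus WT, at 0.07 with an interval of -1.21 to 1.36. The sources used here do not say whether either probe lies in the deleted part, and the values are no check of the genotypes. Of its 29 values, 9 were repeated.

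The second Ifnar1 probe, 31676, was mostly near 0. It had 21 values, 15 of them repeated, and all 5 in WT glands were repeated, with a mean of -0.09 ± 0.12 (SD). Its highest values, 4.76 and 1.78, were in 2 Her2/Neu+/IFNAR1-/- glands, and that group averaged 1.29 ± 2.09 (n = 5) against -0.02 ± 0.40 (n = 6) in IFNAR1-/- glands. The difference of 1.31 ± 0.62 (SE) did not pass (limma, adjusted p = 0.263), and the 1.39 ± 0.64 against WT did not either (adjusted p = 0.466). Both probes had a value that was not repeated on 5 arrays. On 3 of these the signs were alike, as in the Her2/Neu+/IFNAR1-/- gland with 1.65 and 4.76, and on 2 they were opposite, as in IFNAR1-/- sample 44 with -1.07 and 0.30.

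Ifnar2, the other chain of the type I receptor, was measured on all 30 arrays with no repeated value and lay around the reference. WT glands ran from -0.84 through a median of 0.09 to 0.85, IFNAR1-/- glands from -1.03 through 0.10 to 0.67, Her2/Neu+ glands from -2.10 through -0.19 to 0.67 and Her2/Neu+/IFNAR1-/- glands from -0.96 through -0.34 to 0.69. The groups overlapped throughout, although 8 of the 9 Her2/Neu+/IFNAR1-/- glands were below 0. WT glands averaged -0.04 ± 0.54 (SD, n = 7), IFNAR1-/- glands 0.10 ± 0.53 (n = 8), Her2/Neu+ glands -0.39 ± 1.01 (n = 6) and Her2/Neu+/IFNAR1-/- glands -0.26 ± 0.46 (n = 9). IFNAR1-/- minus WT was 0.14 with a 95% interval of -0.53 to 0.81, so a change of about 1 in either direction would lie outside it.

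Il10rb, between Ifnar2 and Ifnar1 in the cluster, was near the reference in most glands. WT glands ran from -0.23 through 0.43 to 1.14, IFNAR1-/- glands from -0.63 through 0.59 to 0.94 and Her2/Neu+ glands from -0.42 through 0.11 to 1.57. In the Her2/Neu+/IFNAR1-/- group 7 of 9 values were repeated and lay between -0.44 and -0.01, and samples 104 and 109 stood at 3.10 and 4.55. That group averaged 0.70 ± 1.81 (SD, n = 9), against 0.46 ± 0.52 (n = 7) in WT, with a median of -0.07, and the 2 high glands were both in array set 1. The averaged oncogene effect on Il10rb was 0.07 ± 0.40 (SE, limma, adjusted p = 0.948) over all arrays. Fitted within array set 1 it was 1.09, and within set 2 it was -0.83 (adjusted p = 0.0130). Over all probes, 1461 passed for this effect within set 2, against 305 over all arrays and 0 within set 1. Array set 2 held 2 Her2/Neu+ glands, and all 5 of its Her2/Neu+/IFNAR1-/- values were repeated.

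**Figure D3:**
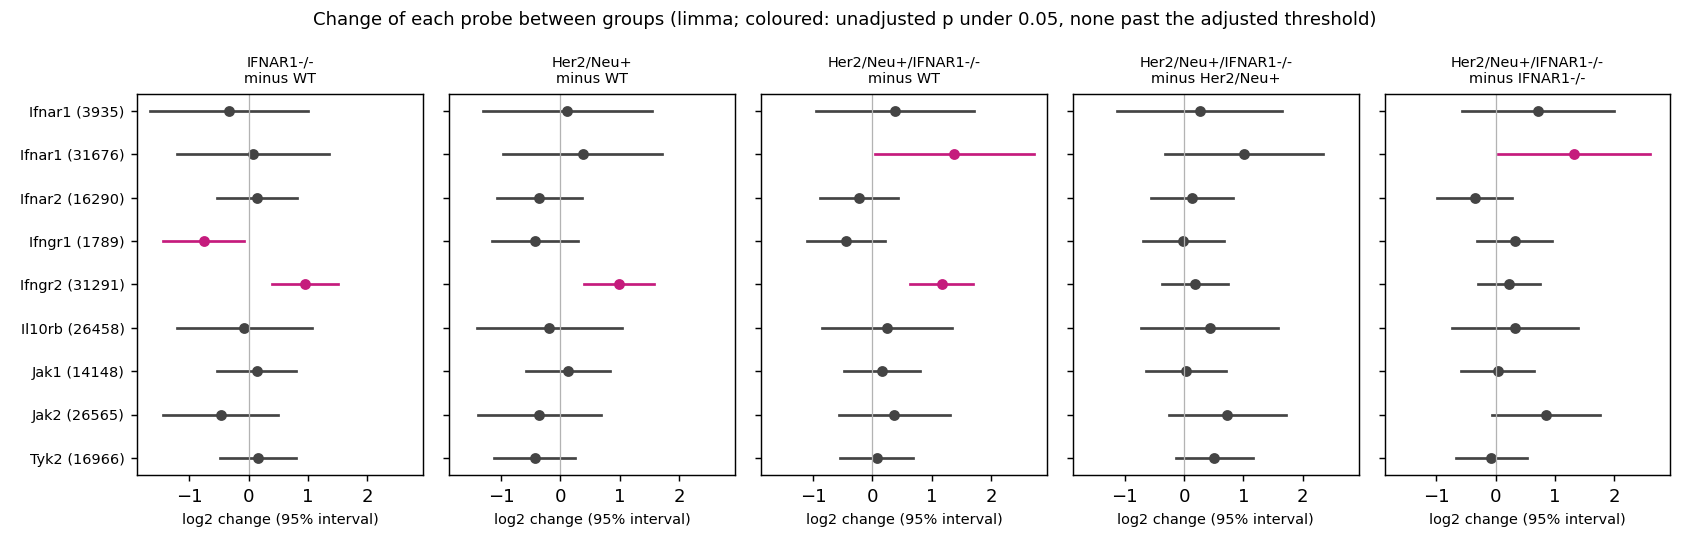
Change of each of the 9 probes in 5 comparisons (log2, horizontal axis) with 95% intervals from limma. Coloured intervals have an unadjusted p under 0.05, and none passed the adjusted threshold. Ifngr2 is coloured in all 3 comparisons with WT.

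Jak1, the kinase on IFNAR2 and IFNGR1, had almost the same mean in every group, with no repeated value on 30 arrays. It was 0.16 ± 0.63 (SD, n = 7) in WT glands, 0.29 ± 0.23 (n = 8) in IFNAR1-/- glands, 0.29 ± 0.76 (n = 6) in Her2/Neu+ glands and 0.32 ± 0.75 (n = 9) in glands of the Her2/Neu+/IFNAR1-/- group. Single glands ran from -0.61 to 1.02, from -0.01 to 0.61, from -0.68 to 1.57 and from -0.64 to 1.37 in these groups, which overlapped throughout. IFNAR1-/- minus WT was 0.13 with a 95% interval of -0.53 to 0.79, and Her2/Neu+ minus WT was 0.12 with an interval of -0.59 to 0.83.

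Jak1 differed more between glands of a group than between groups, and it varied with lymphocyte markers. Over 30 glands, as deviations from the group means, Jak1 correlated with the mean of 5 of 6 T and NK cell markers (Pearson's r = 0.74, permutation p = 5e-05, adjusted p = 0.0023, Spearman's rho = 0.70, p = 0.00013, adjusted p = 0.00598). It also correlated with 2 of 4 B cell markers (r = 0.71, rho = 0.72, both with permutation p = 1e-05, the smallest that 100000 permutations can give, adjusted p = 0.00092). These were 2 of 92 relations computed among the 8 genes and 8 marker lists, chosen after seeing the data, with permutations within groups and adjustment over all 92. Without the 2 glands farthest from the median marker level, r was 0.75 for T and NK cell markers and 0.68 for B cell markers. Within array sets 1 and 2, r was 0.71 and 0.76 for T and NK cell markers and 0.64 and 0.77 for B cell markers. No other relation passed, the next being Ifnar1 with B cell markers (rho = 0.55, permutation p = 0.0032, adjusted p = 0.0981). Ifnar1 was taken there as the mean of those of its probes that had a value on the array.

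**Figure D4:**
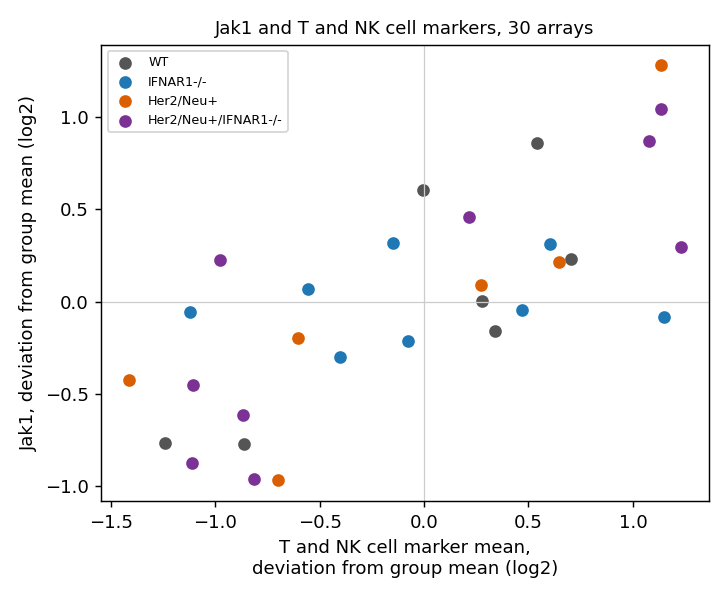
Jak1 against the mean of 5 T and NK cell markers over 30 glands, both in log2 as deviations from the group mean, with the groups in colour. Points rise together from lower left to upper right, with r = 0.74.

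Jak2, the kinase on IFNGR2, was above the reference in all 7 WT glands, from 0.28 through a median of 0.72 to 1.14. IFNAR1-/- glands ran from -1.02 through 0.48 to 0.57, Her2/Neu+ glands from -0.05 through 0.21 to 1.13 and Her2/Neu+/IFNAR1-/- glands from -0.52 through 1.15 to 4.79. The value of 4.79 came from sample 109, the gland with the highest Il10rb value. Means were 0.75 ± 0.33 (SD, n = 7), 0.27 ± 0.54 (n = 8), 0.39 ± 0.52 (n = 6) and 1.12 ± 1.54 (n = 9). Her2/Neu+/IFNAR1-/- minus IFNAR1-/- was 0.85 ± 0.44 (SE, limma, adjusted p = 0.307).

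Tyk2, the kinase on IFNAR1 and IL10RB, gave little information. Of its 30 values 24 were repeated, including all 6 in Her2/Neu+ glands and 6 of 7 in WT glands. Means were -0.01 ± 0.27 (SD, n = 7) in WT glands, 0.14 ± 0.96 (n = 8) in IFNAR1-/- glands, -0.45 ± 0.64 (n = 6) in Her2/Neu+ glands and 0.06 ± 0.23 (n = 9) in glands of the Her2/Neu+/IFNAR1-/- group. The medians of the 4 groups were all close to 0, and the widest values were -1.52 in Her2/Neu+ sample 118 and 1.87 in IFNAR1-/- sample 47, both repeated.

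For each gene the 2 genes most like it were found by Spearman's rho of the deviations from the group means over 29 or 30 arrays. This is a description that shares arrays and reference. The search ran over those of the 11463 named genes with values on at least 27 arrays. The highest rho of so many can be large without any relation, and how large was not computed. Jak1 was most like Ets1 (rho = 0.85), a transcription factor of lymphocytes, and Arhgap9 (0.84). Ifnar1 was read as the mean of its 2 probes on 21 arrays and by probe 3935 alone on the others with a value. Its profile therefore depends on where probe 31676 is blank, and neither probe was read alone here. Read so, Ifnar1 was most like Selplg (0.73), the P-selectin ligand of leukocytes, and Nckap1l (0.70), a cytoskeletal regulator of blood cells. Ifngr1 was most like Slc25a11 (0.86) and Aars (0.79), and Ifngr2 most like Krtcap2 (0.70) and Rplp0 (0.68), a ribosomal protein gene. The leading values were 0.76 for Ifnar2 with Serinc1, 0.69 for Il10rb with Borcs7, 0.69 for Jak2 with Ndufc2 and 0.76 for Tyk2 with Ccdc117.

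Upstream of these receptors, none of the 16 interferon ligand genes searched was among the named genes of the array. Of 6 other chains of this receptor family 2 were measured, Ifnlr1 and Il20ra, and 0 passed in any comparison, with 0 at an unadjusted p under 0.05. Il20ra in the interaction came closest, at 0.45 ± 0.29 (SE, limma, adjusted p = 0.555).

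Downstream, Stat3, which carries signals of interleukin 6 and related cytokines, was the only signal transducer of the list to pass the test. Of 21 probes of 8 measured genes, 3 rose and 0 fell in the averaged oncogene effect, where 1.56% of all probes passed. All 3 belonged to Stat3, which has 11 probes. The list's median averaged oncogene effect was 0.33, against 0.07 over all probes. Stat3 probe 3754 ran from 0.32 through 0.51 to 1.02 in WT, from -0.30 through 0.49 to 0.85 in IFNAR1-/-, from 0.79 through 1.53 to 1.81 in Her2/Neu+ and from 0.20 through 1.22 to 2.06 in Her2/Neu+/IFNAR1-/- glands. Its averaged oncogene effect was 0.77 ± 0.17 (SE, limma, adjusted p = 0.0208), the largest among the 11 Stat3 probes, which ran from -0.07 with a median of 0.37. With the mean of the gene's probes the change was 0.41 and did not pass. In the other 7 comparisons 0 of the 21 probes passed, with 0 to 9 rising and 0 falling at an unadjusted p under 0.05. The 9 were in Her2/Neu+/IFNAR1-/- minus IFNAR1-/-, where 18.1% of all probes reached that level. Stat2 and Irf9, which form a transcription factor complex of type I interferon signalling, were in this list and also among the interferon-stimulated genes.

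Among the brakes on JAK-STAT signalling, Socs2, Cish and Usp18 rose in the averaged oncogene effect. Of 31 probes of 17 measured genes, 13 rose in the averaged oncogene effect, 5 in Her2/Neu+/IFNAR1-/- minus IFNAR1-/-, 4 in Her2/Neu+/IFNAR1-/- minus WT and 1 in Her2/Neu+ minus WT, and 0 fell in any comparison. Of all probes, 1.56%, 1.09%, 0.149% and 0.113% passed in these 4 comparisons, in this order. The list's median averaged oncogene effect was 0.67, against 0.07 over all probes. No other gene of the list passed, and Socs2, a suppressor of cytokine signalling known for damping growth hormone, gave 11 of the 13 averaged calls from its 12 probes. In the 4 comparisons with 0 calls, at an unadjusted p under 0.05, 2 probes rose and 3 fell in IFNAR1-/- minus WT, 1 rose and 1 fell in Her2/Neu+/IFNAR1-/- minus Her2/Neu+, 2 rose and 0 fell in the interaction, and 2 rose and 1 fell with averaged receptor loss. The shares of all probes at that level were 6.51%, 12.1%, 10.4% and 8.87%, in this order.

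Socs2 probe 3685 had the largest averaged oncogene effect of the gene's probes. It ran from -0.58 through 0.14 to 1.47 in WT, from -0.01 through 1.61 to 4.04 in IFNAR1-/-, from 3.51 through 3.90 to 4.89 in Her2/Neu+ and from 1.81 through 4.54 to 6 in Her2/Neu+/IFNAR1-/- glands, where 6 is the limit of the deposited values. All Her2/Neu+ glands lay above all WT glands for this probe, and likewise for probes 18381 and 3869. With the remaining Socs2 probes called in the averaged oncogene effect these ranges overlapped. With probe 41182, for example, the lowest Her2/Neu+ value was -0.02 and the highest WT value 2.70. How many of all probes separate these groups was not computed, and WT and Her2/Neu+ glands shared no inferred slide. The change was 3.77 ± 0.60 (SE) in Her2/Neu+ minus WT (limma, adjusted p = 0.00473), 4.00 ± 0.55 in Her2/Neu+/IFNAR1-/- minus WT (adjusted p = 0.000680) and 3.14 ± 0.40 for the averaged oncogene effect (adjusted p = 7.02e-05).

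Cish, a STAT5-induced inhibitor related to Socs2, was higher in Her2/Neu+/IFNAR1-/- glands (3.16 ± 0.61, SD, n = 8) than in WT glands (0.93 ± 0.74, n = 6), by 2.23 ± 0.38 (SE, limma, adjusted p = 0.00641). IFNAR1-/- and Her2/Neu+ glands lay between, at 1.99 ± 0.73 (n = 8) and 1.87 ± 0.78 (n = 6). The Cish change with averaged receptor loss, 1.17 ± 0.27 (adjusted p = 0.108), was as large as that with the oncogene, 1.06 ± 0.27 (adjusted p = 0.0422). Usp18, which removes ISG15 from proteins and blocks signalling at IFNAR2, rose by 2.75 ± 0.60 (SE) in Her2/Neu+/IFNAR1-/- minus IFNAR1-/- (adjusted p = 0.0302) and by 2.06 ± 0.46 in the averaged oncogene effect (adjusted p = 0.0208). With slide as a random block the averaged calls of Stat3, Cish and Usp18 were lost, as were the calls of Usp18 and Socs2 probe 3685 against IFNAR1-/- glands, the Cish call against WT and the Socs2 call in Her2/Neu+ minus WT, which was also lost with the mean of the gene's probes. The averaged Socs2 call was lost in array set 1 alone, where 0 of all probes passed for that effect, and under no other alternative. In each array set alone the Socs2 call in Her2/Neu+/IFNAR1-/- minus WT and the averaged calls of Cish and Usp18 were lost. The call of Socs2 probe 3685 against IFNAR1-/- glands was lost in 6 of 30 fits that left out 1 gland, with adjusted p-values up to 0.0676. The Usp18 call against IFNAR1-/- was also lost without IFNAR1-/- sample 44, 46 or 47 or Her2/Neu+/IFNAR1-/- sample 105, 108, 109 or 110, with adjusted p-values up to 0.0692. The averaged Cish effect was lost in 16 of 30 fits that left out 1 gland, with adjusted p-values up to 0.0759. Markers of other cells moved in the same comparison: Acta2, smooth muscle actin, fell by 1.05 to 1.25 over 4 probes in the averaged oncogene effect, and Epcam, an epithelial adhesion molecule, rose by 2.10 ± 0.55 (SE, adjusted p = 0.0455). Epcam was the only one of 11 luminal probes to pass, and the median over these probes was 0.04, against 0.07 over all probes. The part of cell composition in these changes was not tested.

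**Figure D5:**
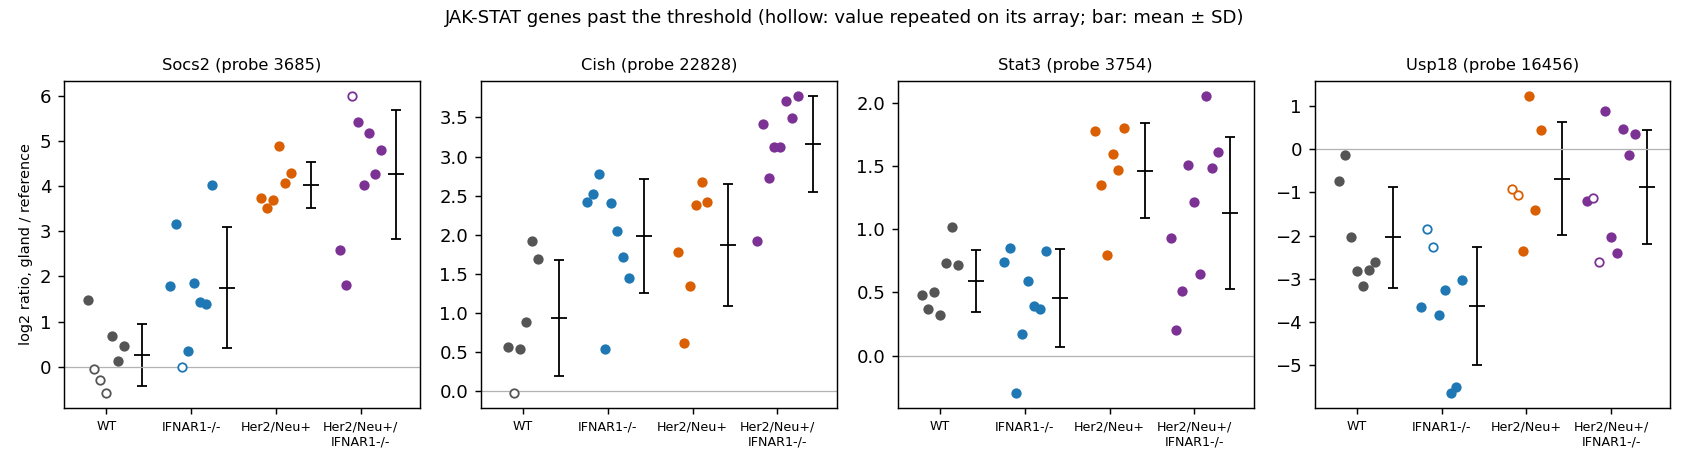
Log2 ratio of gland to reference on every array for Socs2, Cish, Stat3 and Usp18, each by the probe with its largest averaged oncogene effect. Points are arrays, hollow points are repeated values, and bars are means with SD. Every Her2/Neu+ gland lies above every WT gland for the Socs2 probe shown, which does not hold for every Socs2 probe.

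The interferon-stimulated genes, a readout of the pathway, rose in part with the oncogene. Of 23 probes of 20 measured genes, 10 rose in the averaged oncogene effect, 8 in Her2/Neu+/IFNAR1-/- minus IFNAR1-/- and 2 in Her2/Neu+ minus WT, and 0 fell. Of all probes, 1.56%, 1.09% and 0.113% passed in these comparisons, in this order. Over the list the mean level was -0.23 ± 0.35 (SD, n = 7) in WT glands, -0.91 ± 0.35 (n = 8) in IFNAR1-/- glands, 1.39 ± 0.98 (n = 6) in Her2/Neu+ glands and 0.63 ± 1.02 (n = 9) in glands of the Her2/Neu+/IFNAR1-/- group. Genes passing in the averaged effect were Oas1a, Oas2, Oasl2, Ifit3, Rtp4, Isg15, Irf7, Xaf1 and Usp18, with Oas1a probe 1805, for a sensor of double-stranded RNA, at 4.49 ± 0.52 (SE, limma, adjusted p = 1.38e-05) and 2 of its 8 IFNAR1-/- values at the lower limit of -6. Oas1a probe 4051 rose less, by 2.07 ± 0.47 (adjusted p = 0.0221), and 6 of its 7 WT and all 8 of its IFNAR1-/- values were repeated. With slide as a random block, both calls in Her2/Neu+ minus WT (Oas1a and Oasl2) were lost, and of the 8 against IFNAR1-/- glands only that of Oas1a held. The averaged calls of Irf7, Xaf1 and Usp18 were lost there too. In array set 2 alone, where 1461 of all probes passed for this effect, those of Oas2, Rtp4, Irf7, Xaf1 and Usp18 were lost. In array set 1 alone 0 of all probes passed for this effect, so those of all 9 genes, each read by 1 probe, were lost. With the mean of the gene's probes the averaged change of Xaf1 was 0.73 instead of 1.73 and did not pass. When 1 gland was left out, the averaged call of Irf7 was lost without IFNAR1-/- sample 44 or Her2/Neu+ sample 119, with adjusted p-values up to 0.0518. Against IFNAR1-/- glands, the calls of Ifit3, Isg15, Oas2 and Xaf1 were each lost without IFNAR1-/- sample 44, 46 or 47 or Her2/Neu+/IFNAR1-/- sample 105, 108, 109 or 110, with adjusted p-values up to 0.0950. Isg15 and Xaf1 were also lost without IFNAR1-/- sample 39, and Ifit3 and Xaf1 without sample 50. In Her2/Neu+ minus WT, Oas1a was lost without WT sample 54 or Her2/Neu+ sample 113, 118 or 119, and Oasl2 without Her2/Neu+ sample 118, with adjusted p-values up to 0.0697. In averaged receptor loss 0 of the 23 passed, and 8 fell and 0 rose at an unadjusted p under 0.05, which 8.87% of all probes reached. The median change there was -0.68, against 0.03 over all probes. Of the 9 receptor and kinase probes, 7 were higher and 2 lower with averaged receptor loss, with a median of 0.14, and 6 were higher and 3 lower in the averaged oncogene effect, with a median of 0.08.

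Around the receptor cluster, 10 of 16 neighbouring genes on chromosome 16 were measured by 26 probes, and the call there was 1 probe of Slc5a3, a myo-inositol transporter, which rose by 2.63 ± 0.59 (SE, limma) in Her2/Neu+/IFNAR1-/- minus IFNAR1-/- (adjusted p = 0.0342). Slc5a3 has 11 probes, whose changes in that comparison ran from -1.20 to 2.63, and the call was lost without IFNAR1-/- sample 44 or 47 or Her2/Neu+/IFNAR1-/- sample 108, 109 or 110, with adjusted p-values up to 0.0803. It was also lost with slide as a random block, and with the mean of the gene's probes, where the change was 0.64. In IFNAR1-/- minus WT 0 of the 26 probes passed, and 0 rose and 1 fell at an unadjusted p under 0.05, which 6.51% of all probes reached. In Her2/Neu+/IFNAR1-/- minus Her2/Neu+ 0 passed, and 6 rose and 0 fell at that level (12.1% of all probes). For the interaction 0 passed, and 4 rose and 0 fell (10.4%). With averaged receptor loss 0 passed, and 2 rose and 0 fell (8.87%).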

How the data were processed

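Values are the log2 ratios that the authors deposited in 1 table of 20896 probes and 30 arrays, with the gland in Cy5 and the reference in Cy3 per the labels. The direction was taken from these dyes and the base of the logarithm was inferred, as no value exceeds 6 in size. Scanner settings, background correction, normalization within arrays and the origin of blank and repeated values are not given in the sources used here. No further scaling was applied. Probes were named from the platform annotation: 17376 had 1 symbol and 3520 none or several.

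Probes blank on more than 50% of the arrays in any group were dropped, which left 19525 probes and 11463 named genes. Differences were fitted probe by probe with limma 3.58.1 in R 4.3.3 (lmFit and eBayes, no trend) over all 30 arrays with a mean per group, two-sided, with Benjamini-Hochberg adjustment over all probes kept and a threshold of 0.05. Permutation tests used Python 3.11.15 with numpy 2.4.6 and scipy 1.17.1. A list's level on an array is the mean over genes of the deviations from each gene's mean, plus the mean of the gene means. The fit was tested on simulated data.

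Every probe of the 8 genes is named. Of each pathway list, genes past the threshold are named, and otherwise up to 3 with the smallest p. The 8 genes and the lists were chosen with earlier results of these data known. Alternatives covered quantile normalization, median centring, filters, weights per array, repeated values, a mean over a gene's probes, a variance trend, slide, position and array set, the groups fitted together and omission of single arrays. Slides and array sets are not named in the labels; block numbers and sample order were used to infer them.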

Additional observations from a re-analysis of the deposited data

Results flagged for a closer look

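In 8 of 36 combinations of probe and group, 1 gland stood apart from the others by more than Dixon's 95% critical value. For independent values with a normal spread the rule picks about 1 in 20. Many groups here hold repeated values, for which that rate need not hold, so no excess over chance can be read from the count. Chosen for a rule on single glands, the flagged values carry no test between groups.

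Jak2 in Her2/Neu+/IFNAR1-/- sample 109 was at 4.79, and the same gland had the highest Il10rb value of all, 4.55. Jak2 in IFNAR1-/- sample 41 was at -1.02, a repeated value. Ifnar2 in that same gland was at -1.03, below the other 7 of its group. IFNAR1-/- sample 41 was also among the 3 glands high in skeletal muscle markers, whose part in these values was not tested.

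Ifnar1 probe 3935 in Her2/Neu+ sample 114 was at 3.66, and the other 5 glands lay between -0.04 and 0.39. Ifnar1 probe 31676 was at 1.27 in Her2/Neu+ sample 118 and at -0.30 in WT sample 60, the latter among 5 values that were all repeated. Il10rb in Her2/Neu+ sample 115 was at 1.57. Tyk2 in WT sample 60 was at 0.57, the only WT value of that probe that was not repeated.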

How the results depend on the processing

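Of 72 changes of receptor and kinase probes, recomputed to 3357 values, 24 values reversed, meaning that the sign turned and the change moved by more than 1 SE or was called, and 10 passed the threshold. The count of member probes past it went from 0 to 1 for the averaged oncogene effect with repeated values missing (Ifngr2, 0.78, adjusted p = 0.0241), with array weights (Ifngr2, 0.71, adjusted p = 0.0424) and in array set 2 alone (Il10rb). It went from 0 to 1, always through Ifngr2, for Her2/Neu+/IFNAR1-/- minus WT with repeated values missing and with array weights. It also did so with values shared by 10 or more probes missing (limma, adjusted p = 0.0366), a setting chosen after seeing the data. No Ifngr2 value was shared by that many probes, so this setting changed only the values of other probes. When 1 gland was left out, the count ranged from 0 to 1.

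In array set 2 alone, Ifnar1 probe 3935 turned to -0.51 in Her2/Neu+/IFNAR1-/- minus Her2/Neu+. Ifngr1 turned to 0.032 in Her2/Neu+ minus WT, 0.0052 for averaged receptor loss, 0.33 for the averaged oncogene effect and 0.34 in Her2/Neu+/IFNAR1-/- minus WT. Il10rb turned to -0.31 against Her2/Neu+, -0.90 against IFNAR1-/-, -1.06 against WT, -0.23 for averaged receptor loss and -0.83 for the averaged oncogene effect. Jak1 turned to -0.68 in Her2/Neu+/IFNAR1-/- minus Her2/Neu+, -0.40 for averaged receptor loss and -0.29 against WT. Jak2 turned to -0.34 for the averaged oncogene effect and -0.55 against WT, and Tyk2 to 0.14 in Her2/Neu+ minus WT and -0.40 in the interaction. In array set 1 alone, Ifnar1 probe 3935 turned to -0.013 against IFNAR1-/-, -0.29 for the averaged oncogene effect and -0.32 against WT, and Tyk2 to -0.39 in IFNAR1-/- minus WT and 0.26 in Her2/Neu+/IFNAR1-/- minus IFNAR1-/-. With quantile normalization Ifngr1 turned to -0.025 against IFNAR1-/-. Leaving out 1 gland moved Ifnar2 in Her2/Neu+/IFNAR1-/- minus Her2/Neu+ between -0.21, without Her2/Neu+ sample 114, and 0.35. The cause was not tested.

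Over all probes, counts past the threshold ranged from 1 to 32 (as reported 4) in IFNAR1-/- minus WT, 0 to 1617 (22) in Her2/Neu+ minus WT, 0 to 1822 (19) in the double group minus Her2/Neu+ and 1 to 635 (213) in it minus IFNAR1-/-. They ranged from 0 to 1161 (3) for the interaction, 0 to 609 (18) for averaged receptor loss, 0 to 1461 (305) for the averaged oncogene effect and 0 to 245 (29) in Her2/Neu+/IFNAR1-/- minus WT. The highest counts came mostly from array set 2 alone. No paired analysis was possible because the groups share no sample numbers.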
